A study of Mus musculus with 4 samples.

Results

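The genes described here are 36 mouse genes of glycolysis and of the response to low oxygen, chosen by gene symbol: 3 transporters of glucose and lactate, 16 glycolytic enzymes, 3 enzymes and regulators of lactate and pyruvate, 2 enzymes that set fructose-2,6-bisphosphate, the oxygen-regulated factor Hif1a with 2 of its prolyl hydroxylases, and 9 further hypoxia response genes. Of the 36 genes, 33 had a probe set of their own, out of 18193 such genes on the array. The study asked what NF-kB contributes to the start of tumours. It used mouse embryonic fibroblasts (MEFs), connective tissue cells taken from embryos and grown in culture, either p65+/+ or p65-/-. p65 is the RelA subunit of NF-kB, encoded by Rela. All 4 groups, the controls included, carry the oncogene HRASG12V from the retroviral vector pBabe-HRASG12V-Hygro.

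The p65+/+ pre-injection and p65-/- pre-injection groups are the Ras-transformed cells in culture. For the p65+/+ tumour and p65-/- tumour groups, these cells formed tumours in SCID mice, which lack functional T and B cells, and the tumour cells were taken back into culture after collagenase and kept under hygromycin for 2 weeks. The tumour groups are therefore recultured cells, not fresh tumour tissue. Each group has 1 Affymetrix array, so no difference below has a replicate check and none has a p-value. The numbers of clones, mice and tumours behind an array are not given in the labels, and genotype cannot be told apart from cell line. In these bulk samples, fewer cells of a type and less RNA per cell cannot be told apart.

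Glycolysis converts glucose to pyruvate, and lactate dehydrogenase turns pyruvate into lactate, which leaves the cell through monocarboxylate transporters. When oxygen is plentiful, the prolyl hydroxylases of the Egln family mark HIF-alpha proteins for destruction. When oxygen is scarce, HIF-alpha builds up at the protein level and binds DNA with its partner Arnt, and many glycolytic enzymes, Slc2a1, Pdk1, Bnip3 and Egln3 itself are known HIF targets. NF-kB is known to contribute to transcription of Hif1a.

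The promoters of the 4 genes that differed by 2-fold or more between p65-/- tumour and p65-/- pre-injection cells are shown because they separate into a pair that was higher (Hif1a, Bnip3) and a pair that was lower (Eno3, Egln3). These 4 are 12.9% of 31 genes compared, where 15.4% of all 12444 genes passed 2-fold. Both pairs rest on the p65-/- pre-injection array. With p65+/+ pre-injection cells in its place, log2 differences were 0.04 for Hif1a, 0.36 for Bnip3, 1.28 for Eno3 and 0.03 for Egln3. Each sequence is the RefSeq strand of the gene in the mouse build GRCm38.p6, from 250 bases before to 50 bases after the start of the gene. Capitals mark the core letters of the HIF binding motif, ACGTG or GCGTG on either strand (read as CACGT or CACGC on the opposite strand). The windows lie at chr11:70656926-70657225 on the plus strand for Eno3, chr12:73907617-73907916 on the plus strand for Hif1a, chr12:54203825-54204124 on the minus strand for Egln3 and chr7:138909457-138909756 on the minus strand for Bnip3.
Hif1a: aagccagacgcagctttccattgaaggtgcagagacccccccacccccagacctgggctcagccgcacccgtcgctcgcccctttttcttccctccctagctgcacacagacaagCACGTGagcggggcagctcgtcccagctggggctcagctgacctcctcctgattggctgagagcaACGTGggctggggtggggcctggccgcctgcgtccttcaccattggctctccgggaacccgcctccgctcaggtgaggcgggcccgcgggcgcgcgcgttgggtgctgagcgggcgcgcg
Bnip3: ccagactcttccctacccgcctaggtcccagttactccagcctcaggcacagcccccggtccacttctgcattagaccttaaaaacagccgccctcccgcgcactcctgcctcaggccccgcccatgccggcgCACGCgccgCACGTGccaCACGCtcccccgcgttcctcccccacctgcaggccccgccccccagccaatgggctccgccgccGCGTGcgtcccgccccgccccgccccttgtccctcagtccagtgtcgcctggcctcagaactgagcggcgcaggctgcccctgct
Eno3: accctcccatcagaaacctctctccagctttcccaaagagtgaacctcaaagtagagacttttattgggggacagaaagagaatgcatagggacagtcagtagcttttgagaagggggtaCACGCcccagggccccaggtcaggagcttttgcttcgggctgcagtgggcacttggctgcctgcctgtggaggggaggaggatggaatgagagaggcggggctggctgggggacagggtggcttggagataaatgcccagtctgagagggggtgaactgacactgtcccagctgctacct
Egln3: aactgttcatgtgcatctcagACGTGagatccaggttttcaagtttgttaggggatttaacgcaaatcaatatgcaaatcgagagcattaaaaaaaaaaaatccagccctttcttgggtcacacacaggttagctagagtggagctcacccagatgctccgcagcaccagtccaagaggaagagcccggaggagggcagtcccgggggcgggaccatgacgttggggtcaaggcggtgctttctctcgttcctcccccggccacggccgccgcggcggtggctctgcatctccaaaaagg

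All 4 windows held the core, in 4 separate stretches for Bnip3, in 2 for Hif1a and in 1 each for Eno3 and Egln3, so its presence did not separate the higher from the lower pair. In Hif1a and Bnip3, 1 stretch is CACGTG, where the core on both strands overlaps the E-box, a motif that other factors bind. Of the 36 genes, 35 were found in the promoter table, all but Ndrg1, and 32 of these 35 (91.4%) had the core in at least 1 window, against 46.7% of 27025 genes with windows of the same length. The genes without it were Gpi1, Tpi1 and Eno2. By window, 40 of 48 (83.3%) had the core, against 43.8% of 32851. Base composition differed too: the median GC content was 62.8% in the 48 windows and 52.7% in all windows, and among windows with GC at or above the former value the shares were 95.8% of 24 and 71.2% of 7307. The 10-letter kB consensus of NF-kB, searched on both strands, was in the windows of 2 of the 35 genes (5.71%), Car9 and Ero1l, against 5.14% of all genes. A match is a description of these letters and not evidence of binding.

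The deposited values are linear signal intensities. The median signal of each array, 87.8 to 93.4, was taken as its floor, and a value under the floor was raised to it. A gene counted as higher or lower where the ratio of 2 arrays was 2-fold or more, a log2 difference of at least 1. Of the 33 genes, 29 were at or above the floor on all 4 arrays, Eno2 and Pfkfb3 on some, and Aldoc and Car9 on none. Where a gene had several probe sets, the strongest stood for it, with those suffixed for possible cross-hybridization used only where no other existed. The SD of log2 differences among probe sets of 1 gene was 0.40 and 0.35 in the comparisons with the p65-/- pre-injection array. It was 0.26 and 0.16 in those without that array.

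Rela signal was 1479 and 1457 on the p65+/+ arrays and 214 and 209 on the p65-/- arrays. The p65-/- pre-injection array stood apart from the rest. Its log2 signals correlated at 0.866 with p65-/- tumour cells, against 0.976 between the p65+/+ arrays and 0.947 between p65-/- tumour and p65+/+ pre-injection cells (10046 genes), and 11153 of its probe sets reached a signal of 200, against 13015 to 13419 on the other 3 arrays. The 2-fold calls among the 36 genes and the main group medians from this array are therefore also given with another in its place. These are in the last paragraph of the Results. Single genes outside the 36 were not given again. All 7 fibroblast markers were above the floor on every array. Of 6 macrophage and leukocyte markers, Csf1r and Cd14 were above the floor on every array, while Ptprc, Cd68, Adgre1 and Itgam were under it on every array. The summed signal of these 6 was 1174 and 1232 on the pre-injection and tumour arrays of p65+/+ cells and 837.9 and 681.4 on those of p65-/- cells. The lower sums came from Cd14, at 743, 809, 330 and 220 in the same order. Csf1r was not lower in p65-/- cells, at 200, 198, 236 and 243. Over the 4 arrays, the summed signal was 237.4 to 273.7 for 4 endothelial markers, 209.2 to 309.2 for 4 epithelial markers and 200.8 to 303.8 for 2 red cell markers. The part of other cell types in the results was not tested.

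**Figure D1:**
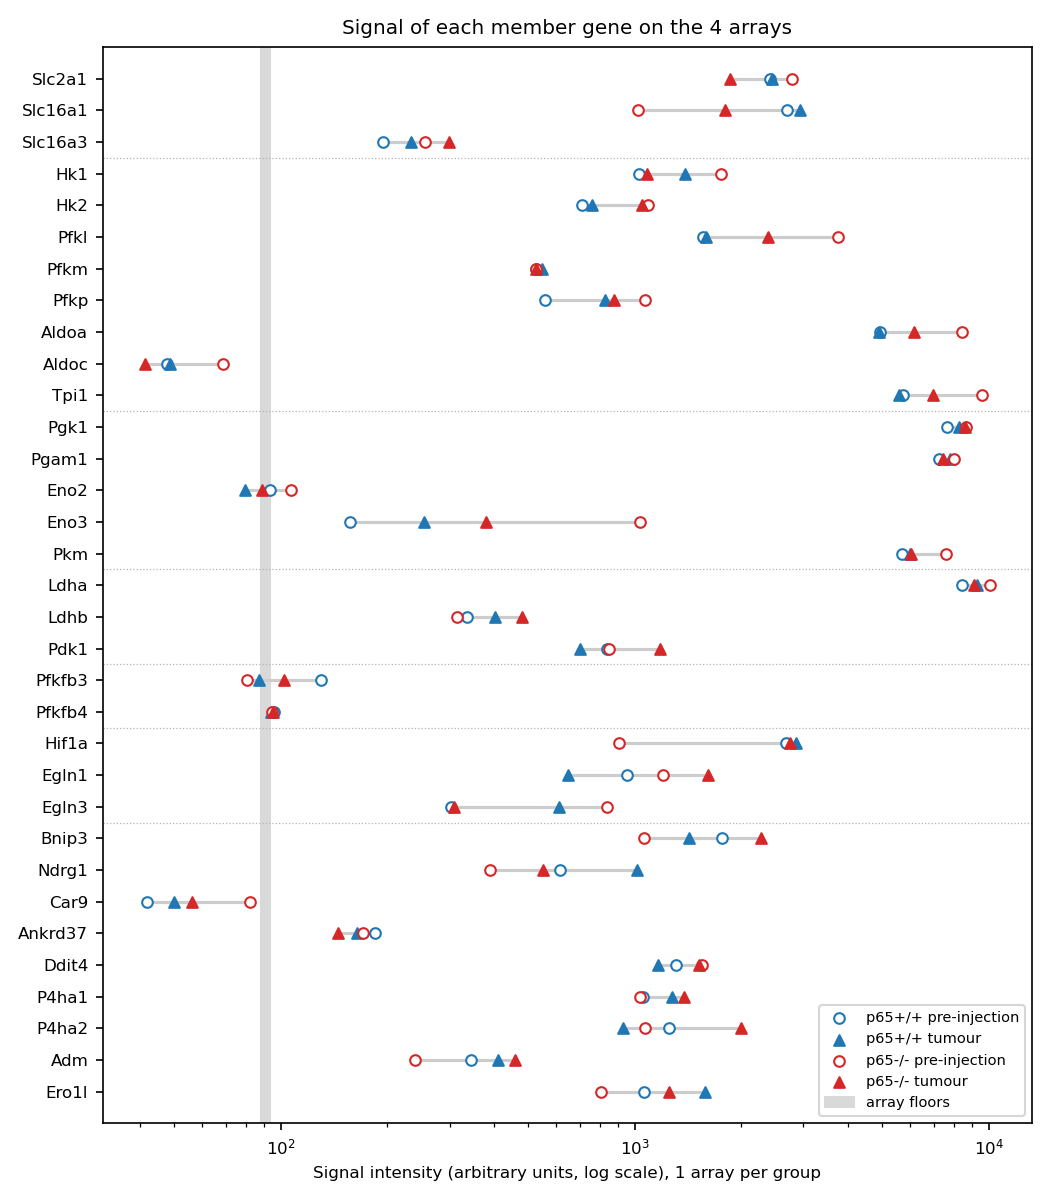
Signal of the 33 genes with a probe set of their own (x axis, arbitrary units, log scale), 1 row per gene and 1 point per array, grouped by role. Circles are pre-injection cells, triangles tumour cells, blue p65+/+ and red p65-/-; the grey band spans the floors of the arrays, and Aldoc and Car9 lie left of it on every array. The p65-/- pre-injection point is the rightmost for Pfkl, Aldoa, Tpi1 and Eno3 and the leftmost for Hif1a and Slc16a1.

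Before injection, Hif1a and the lactate transporter Slc16a1 were lower in p65-/- than in p65+/+ cells, and most glycolytic enzymes read above p65+/+ cells, a pair of them by 2-fold or more. Of 31 genes compared, 3 were higher by 2-fold or more (Eno3, Egln3, Pfkl) and 2 lower (Hif1a, Slc16a1). Over all 12597 genes compared, 2.11% were higher and 18.1% lower, 20.2% in all. The median log2 difference was 0.18 for the 31 genes and -0.02 for all genes. Among the 12 glycolytic enzymes compared, 11 had a difference above 0, with a median of 0.68, although 2 alone passed 2-fold. The 11 genes of the HIF and hypoxia groups had a median of -0.23, with 8 below 0. Of all 12597 genes, 6016 were above 0 and 6580 below.

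In tumour cells fewer genes passed 2-fold between the genotypes. Of 30 genes compared, Egln1 and P4ha2 were higher in p65-/- cells by 2-fold or more and 0 were lower, where 2.74% of 11988 genes were higher and 5.62% lower (8.36% in all). The median difference was 0.10 for the 30 genes and 0.01 for all genes. The median of the glycolytic enzymes was 0.09 over 11 genes. Egln3 lay just under the threshold, at -0.99.

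Between pre-injection and tumour cells, the p65+/+ pair differed least. Of 30 genes compared, Egln3 alone was 2-fold higher in tumour cells and 0 were lower, where 0.991% of 11706 genes were higher and 0.777% lower (1.77% in all). In p65-/- cells, Hif1a and Bnip3 were higher in tumour cells and Eno3 and Egln3 lower, 4 of 31 genes, where 13.9% of 12444 genes were higher and 1.5% lower (15.4% in all). The medians were 0.09 against -0.01 for all genes in p65+/+ and -0.01 against 0.03 in p65-/- cells. For the glycolytic enzymes the median was 0.10 in p65+/+ cells and -0.31 in p65-/- cells, where 11 of 12 were below 0. Of all 12444 genes, 5785 were below 0 in p65-/- cells. For the 11 HIF and hypoxia genes the median was 0.09 and 0.50. The latter became 0.13 with quantile normalization, 0.21 with scaling to the 75th percentile and 0.25 with cyclic loess. In these settings the median of all genes for the p65-/- tumour change moved from 0.03 to -0.18, -0.25 and -0.02.

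The p65-/- tumour change minus the p65+/+ tumour change was below 0 for all 12 glycolytic enzymes compared, with a median of -0.41 and a range of -2.14 to -0.05. Of all 12829 genes, 5668 were below 0. For 31 genes the difference reached 2-fold upward for Hif1a, Bnip3 and P4ha2 and downward for Egln3, Eno3 and Hk1. Over 12829 genes, 14.5% reached it upward and 2.63% downward (17.1% in all), and the medians were -0.07 for the 31 genes and 0.06 for all genes. The p65-/- pre-injection array enters both the genotype comparison before injection and the p65-/- tumour change, so a high or low value on it moves these comparisons in opposite directions. The p65+/+ pre-injection array and both tumour arrays are shared in the same way between comparisons.

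Hif1a encodes the oxygen-regulated alpha subunit of HIF-1. Its signal was 2686 in p65+/+ pre-injection, 2856 in p65+/+ tumour, 903 in p65-/- pre-injection and 2757 in p65-/- tumour cells. The p65-/- pre-injection array was low and the other 3 lay close together. Hif1a was thus 2.97-fold lower in p65-/- cells before injection (log2 difference -1.57), 3.05-fold higher in p65-/- tumour than p65-/- pre-injection cells (1.61) and within 1.06-fold in the remaining comparisons. All 3 Hif1a probe sets passed 2-fold in both, from -2.18 to -1.57 and from 1.61 to 2.11.

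Egln3 encodes the prolyl hydroxylase PHD3. Its signal was 302 in p65+/+ pre-injection, 611 in p65+/+ tumour, 834 in p65-/- pre-injection and 308 in p65-/- tumour cells. The order of pre-injection and tumour cells was opposite in the 2 genotypes: the tumour cells were 2.03-fold higher in p65+/+ (log2 difference 1.02) and 2.71-fold lower in p65-/- (-1.44). These changes differed by -2.45, the 35th lowest of 12829 genes. Before injection Egln3 was 2.76-fold higher in p65-/- cells (1.47), rank 83 from the top of 12597 genes. Its 2 probe sets agreed in direction and size, and the other probe set passed 2-fold in all 4 comparisons, with -1.08 between genotypes in tumour cells. p65-/- tumour and p65+/+ pre-injection cells had nearly equal Egln3 signal.

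Egln1 encodes PHD2, the main hydroxylase of HIF-1 alpha in most cells. Its signal was 953 in p65+/+ pre-injection, 649 in p65+/+ tumour, 1202 in p65-/- pre-injection and 1609 in p65-/- tumour cells. Both p65-/- arrays were above both p65+/+ arrays. The genotype difference was 0.33 before injection and 1.31 in tumour cells, 2.48-fold, with 1.27 and 1.31 on its 2 probe sets. The tumour change was -0.55 in p65+/+ and 0.42 in p65-/- cells, both under 2-fold.

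**Figure D2:**
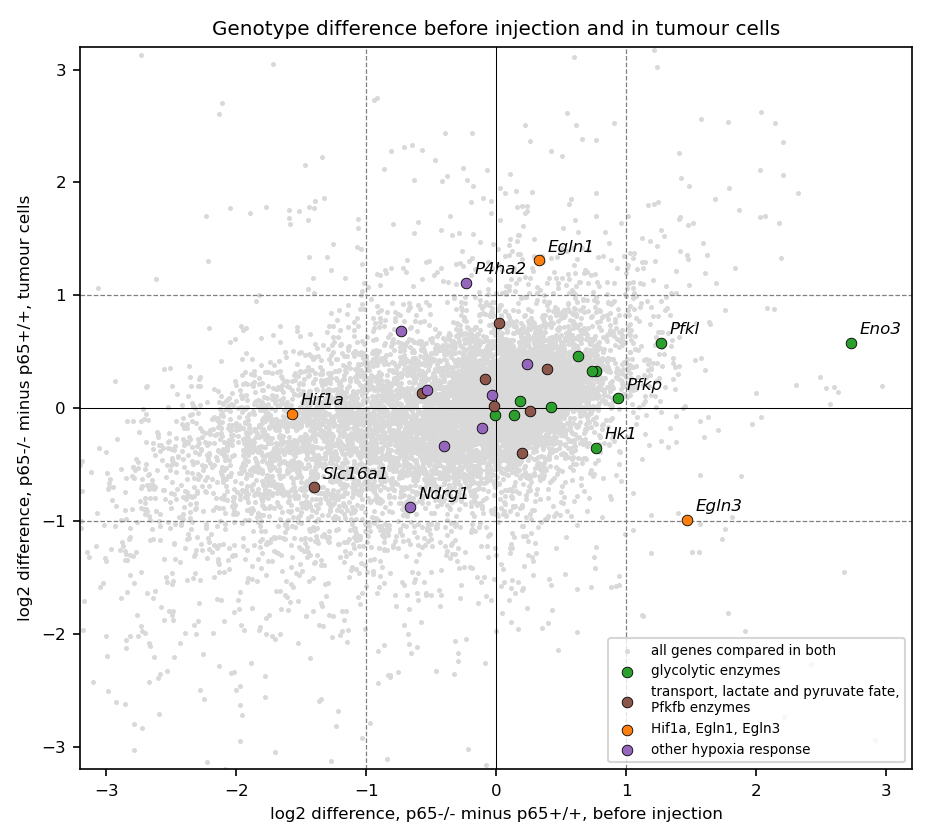
Log2 difference of p65-/- minus p65+/+ cells before injection (x axis) and in tumour cells (y axis) from 1 array per group. Coloured points are the 30 genes compared in both, by role, grey points are all genes compared in both that lie within the axes, and dashed lines mark 2-fold. Pfkl and Eno3 lie past 2-fold on the x axis and Egln1 and P4ha2 on the y axis, and Egln3 lies right of 2-fold at -0.99 on the y axis.

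Of the transporters, Slc2a1 encodes GLUT1, the main glucose carrier of cultured fibroblasts, and Slc16a1 and Slc16a3 encode the lactate carriers MCT1 and MCT4. Slc16a1 signal was 2700 in p65+/+ pre-injection, 2932 in p65+/+ tumour, 1025 in p65-/- pre-injection and 1804 in p65-/- tumour cells. Both p65-/- arrays were below both p65+/+ arrays. The genotype difference was -1.40 before injection (2.63-fold lower) and -0.70 in tumour cells, and rested on 1 probe set, since the other was under the floor. Slc2a1 signal was 2415, 2452, 2777 and 1862 in the same order of arrays. Its p65-/- tumour change was -0.58, with 3 probe sets between -0.58 and -0.44, under 2-fold. Slc16a3 signal was 194, 234, 255 and 298, with differences of 0.22 to 0.39 in the 4 comparisons. For this weak signal the authors' deposited table disagreed: its quotients imply log2 differences of 3.65 and 4.80 between genotypes, before injection and in tumour cells, and tumour changes of 1.06 and 1.92 in p65+/+ and p65-/- cells.

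Hk1 and Hk2 encode hexokinases, which trap glucose in the cell as glucose-6-phosphate. Hk1 signal was 1026 in p65+/+ pre-injection, 1385 in p65+/+ tumour, 1752 in p65-/- pre-injection and 1085 in p65-/- tumour cells. No single Hk1 comparison reached 2-fold, but the tumour change was 0.43 in p65+/+ and -0.69 in p65-/- cells, a difference of -1.12, and its other probe set gave -0.93. A probe set shared between Hk1 and other genes gave 0.29 and was not used. Hk2 signal was 708, 760, 1094 and 1047 in the same order, 0.63 apart between genotypes before injection and 0.46 in tumour cells.

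Pfkl, Pfkm and Pfkp encode the liver, muscle and platelet forms of phosphofructokinase, the committed step of glycolysis. Pfkl signal was 1558 in p65+/+ pre-injection, 1591 in p65+/+ tumour, 3763 in p65-/- pre-injection and 2382 in p65-/- tumour cells. The p65+/+ arrays were alike and both p65-/- arrays were above them. The genotype difference before injection was 1.27, 2.41-fold, but the other 2 Pfkl probe sets gave 0.99 and 0.76, so 1 of 3 passed the threshold. In tumour cells the difference was 0.58. Pfkp signal was 560, 823, 1071 and 876, with a genotype difference of 0.94 before injection and 1.07 on its other probe set. Pfkm signal was 528, 549, 525 and 528, nearly equal on the 4 arrays.

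Aldoa encodes the main aldolase of fibroblasts and Tpi1 triose-phosphate isomerase. Aldoa signal was 4924 in p65+/+ pre-injection, 4901 in p65+/+ tumour, 8416 in p65-/- pre-injection and 6156 in p65-/- tumour cells, and Tpi1 signal 5719, 5570, 9557 and 6981 in the same order. For both, the p65+/+ arrays were alike, the p65-/- pre-injection array was highest and the p65-/- tumour array lay between. Differences before injection were 0.77 and 0.74, under 2-fold, with 0.67 to 0.80 over 5 Aldoa probe sets and 0.70 to 0.81 over 3 Tpi1 probe sets. All 5 Aldoa probe sets carry a suffix that marks possible cross-hybridization. Aldoc was under the floor on every array, and Gpi1 was not analysed here.

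Eno3 encodes beta-enolase, the enolase best known from skeletal muscle. Its signal was 157 in p65+/+ pre-injection, 254 in p65+/+ tumour, 1038 in p65-/- pre-injection and 381 in p65-/- tumour cells. Both p65-/- arrays were above both p65+/+ arrays, and the p65-/- pre-injection array was far above the rest. Eno3 was 6.62-fold higher in p65-/- cells before injection (2.73), the 10th highest difference of 12597 genes, and 0.58 apart in tumour cells. The tumour change was 0.70 in p65+/+ and -1.45 in p65-/- cells, a difference of -2.14. Eno3 has 1 probe set, so this gene has no second measurement on the array. The summed signal of 4 muscle markers was 524.8 to 545.6 on the 4 arrays, without a like difference.

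The remaining enzymes of lower glycolysis differed less, on high signals. Pgk1, which encodes phosphoglycerate kinase, read 7612 in p65+/+ pre-injection, 8237 in p65+/+ tumour, 8640 in p65-/- pre-injection and 8579 in p65-/- tumour cells, and its differences lay between -0.01 and 0.18. Pgam1, for phosphoglycerate mutase, read 7244, 7761, 7970 and 7450, with differences of -0.10 to 0.14. Pkm, for pyruvate kinase, read 5684, 6001, 7603 and 6051, a difference of 0.42 between genotypes before injection and 0.01 in tumour cells. Eno2, the neuronal enolase, stayed between 79.2 and 107, near the floor, and Eno1 was not analysed here. The 3 probe sets annotated to Gapdh are shared with other genes and were not used: the strongest read 11615, 11678, 14217 and 13027 in the same order, and the differences between genotypes before injection were 0.29, 0.96 and 1.20.

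Signal level was set beside these differences because the genotype difference of all genes varied with it. For genes with a mean signal of 1000 to 2000, the median difference before injection was -0.42 over 944 genes and -0.13 over the 8 described here. For the 146 genes at or above 4000 the quartiles were -0.33 and 0.17. Aldoa, Tpi1, Pgk1, Pgam1, Pkm and Ldha belong to those 146, and 5 of these 6 were above the upper quartile, with Aldoa highest at 0.77. Pgam1, at 0.14, was not. Pgk1 passed it narrowly at 0.18, and its other probe sets, at 0.15 and 0.16, did not. In the p65-/- tumour change, 3 of the 6 were below the lower quartile of the 146 genes.

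Ldha and Ldhb encode the subunits of lactate dehydrogenase. Ldha signal was 8412 in p65+/+ pre-injection, 9303 in p65+/+ tumour, 10081 in p65-/- pre-injection and 9103 in p65-/- tumour cells, with differences of -0.15 to 0.26. Ldhb signal was 335, 402, 315 and 480, and its p65-/- tumour change was 0.61, with 0.61 to 0.98 over 4 probe sets, each under 2-fold. Pdk1 encodes a kinase that switches off pyruvate dehydrogenase and so keeps pyruvate out of mitochondria. Its signal was 834, 702, 848 and 1181, highest in p65-/- tumour cells, with a genotype difference of 0.75 there and 0.02 before injection. A weaker Pdk1 probe set (497, 355, 326 and 559) gave 0.65 and -0.61. Its tumour changes differed by 1.26, past 2-fold, against 0.73 and 0.78 on the other Pdk1 probe sets above the floor. Pfkfb3 and Pfkfb4 encode enzymes that make fructose-2,6-bisphosphate, the activator of phosphofructokinase. Both were near the floor, between 80.2 and 130 for Pfkfb3 and between 93.7 and 95.5 for Pfkfb4, and the 2 Pfkfb3 probe sets disagreed in sign before injection (-0.57 and 0.08).

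**Figure D3:**
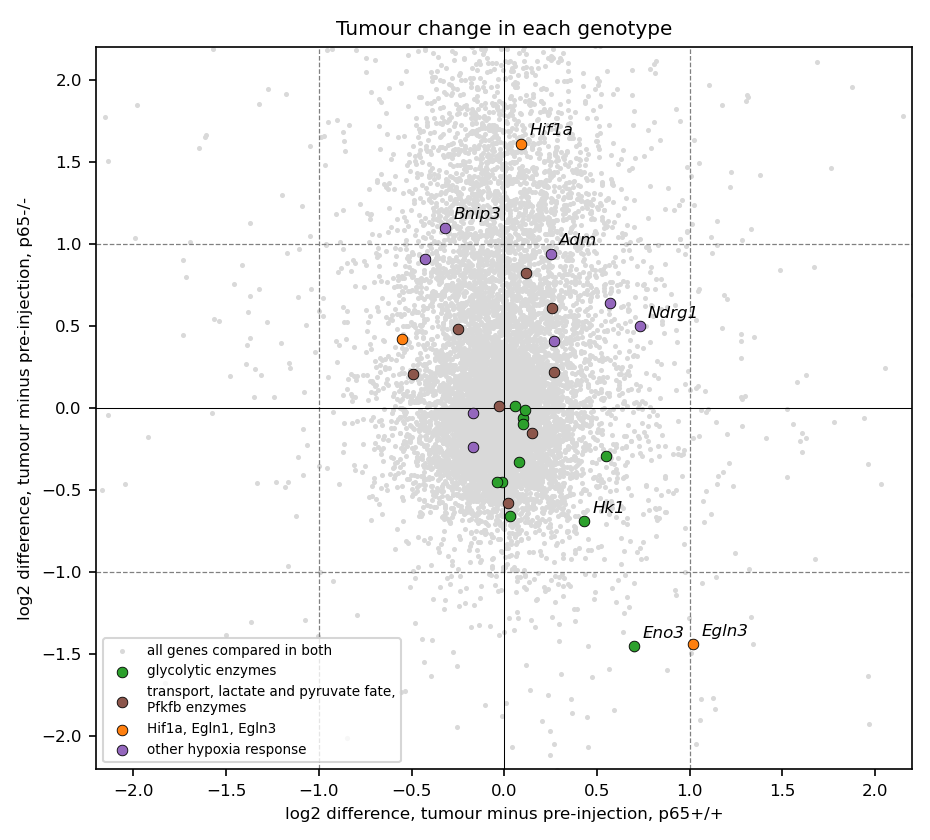
Log2 difference of tumour minus pre-injection cells in p65+/+ (x axis) and p65-/- cells (y axis) from 1 array per group. Coloured points are the 30 genes compared in both, by role, grey points are all genes compared in both that lie within the axes, and dashed lines mark 2-fold. Egln3 lies at 1.02 and -1.44, Hif1a and Bnip3 lie above 2-fold on the y axis, and the glycolytic enzymes lie at or below 0 on the y axis except Pfkm at 0.01.

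Among the other hypoxia response genes, Bnip3 encodes a mitochondrial protein of mitophagy and cell death. Its signal was 1767 in p65+/+ pre-injection, 1420 in p65+/+ tumour, 1064 in p65-/- pre-injection and 2276 in p65-/- tumour cells. The p65-/- arrays were the lowest and the highest of the 4. The p65-/- tumour change was 1.10, 2.14-fold, and the p65+/+ change -0.32, a difference of 1.41.

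P4ha1 and P4ha2 encode alpha subunits of collagen prolyl 4-hydroxylase, which collagen needs to form a stable triple helix. P4ha2 signal was 1252 in p65+/+ pre-injection, 928 in p65+/+ tumour, 1067 in p65-/- pre-injection and 2003 in p65-/- tumour cells. The p65-/- tumour array was high and the other 3 lay closer together. The genotype difference in tumour cells was 1.11, 2.16-fold, on 1 probe set. The tumour change was -0.43 in p65+/+ and 0.91 in p65-/- cells, a difference of 1.34. P4ha1 signal was 1055, 1273, 1036 and 1379, with differences of -0.03 to 0.41.

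Ero1l, now named Ero1a, encodes an oxidase of the endoplasmic reticulum that drives disulphide bond formation. Its signal was 1062 in p65+/+ pre-injection, 1582 in p65+/+ tumour, 802 in p65-/- pre-injection and 1252 in p65-/- tumour cells, higher in tumour cells of both genotypes by 0.57 and 0.64, under 2-fold. Its other 2 probe sets gave 1.18 and 1.23 for the p65-/- change, so 2 of 3 passed 2-fold while the one that stands for the gene did not. Ndrg1, a gene induced by stress and differentiation, read 615, 1018, 390 and 552, with tumour changes of 0.73 and 0.50 and genotype differences of -0.66 and -0.88. Both p65-/- arrays were below both p65+/+ arrays for Ndrg1. Adm, for the vasodilator peptide adrenomedullin, read 345, 411, 239 and 460, and its p65-/- tumour change was 0.94, just under 2-fold.

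Ddit4, an inhibitor of mTORC1 signalling, read 1308 in p65+/+ pre-injection, 1162 in p65+/+ tumour, 1550 in p65-/- pre-injection and 1523 in p65-/- tumour cells, with differences of -0.17 to 0.39. Ankrd37 read 185, 164, 171 and 145 and stayed within -0.24 and -0.11. Car9, a cell-surface carbonic anhydrase and widely used marker of hypoxic cells, was under the floor on every array, between 41.8 and 81.9.

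**Figure D4:**
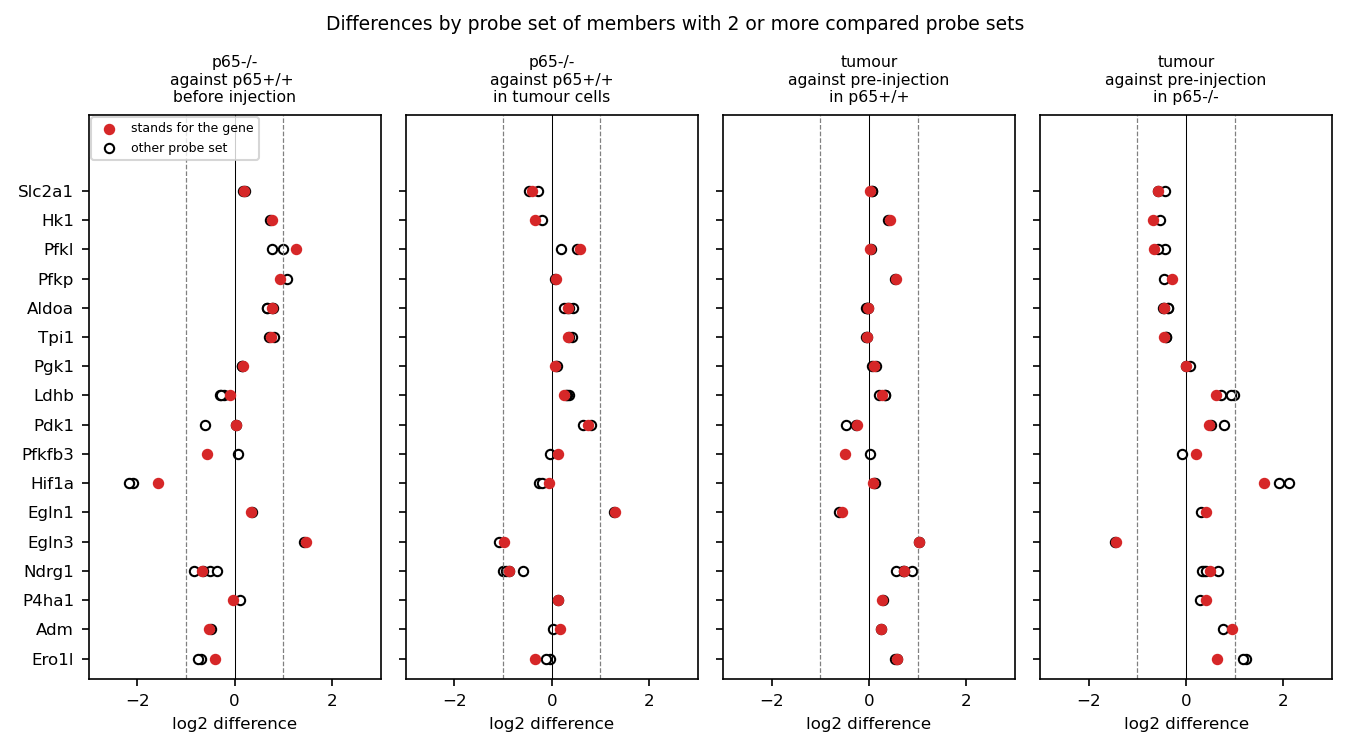
Log2 differences of each probe set (x axis) for the 17 genes with 2 or more compared probe sets, 1 panel per comparison, from 1 array per group. Red points are the probe set that stands for the gene, open points the other probe sets, and dashed lines mark 2-fold. The 3 Hif1a and 2 Egln3 probe sets lie on 1 side of 2-fold before injection and in the p65-/- tumour change, whereas those of Pfkl straddle it before injection and those of Ero1l in the p65-/- tumour change.

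Other genes of the same pathways were read from lists of 73 names, of which 65 had a probe set. Before injection, 2 of 58 compared were higher in p65-/- cells and 14 lower, where 2.11% of all genes were higher and 18.1% lower. The median was -0.16. It turned positive with quantile normalization (0.22, with 5 higher and 10 lower), scaling to the 75th percentile (0.21, with 4 and 10), cyclic loess (0.03) and no floor (0.01). In these settings the median of all genes moved from -0.02 to 0.24, 0.35, 0.02 and 0.07. Of all 12597 genes, 891 were higher and 1559 lower with quantile normalization, and 803 and 1506 with scaling to the 75th percentile. Of the listed genes, the lower ones include 3 of 8 other regulators of HIF. Epas1 among them, which encodes HIF-2 alpha, read 559 and 28 on the p65+/+ and p65-/- arrays. It was at least 6.37-fold lower, since the latter is under the floor. Of 20 other hypoxia genes 2 were higher and 7 lower, among them Stc1, for the hormone stanniocalcin (524 and 89.3, 5.86-fold lower), Lox, for lysyl oxidase (3238 and 699, 4.63-fold lower), Wsb1 (1049 and 250, 4.20-fold lower) and Vegfa, for the vascular growth factor (936 and 242, 3.86-fold lower). Ugp2, for the enzyme that makes UDP-glucose, was 5.31-fold lower, at 1356 and 256. Of 8 other glycolysis genes, 0 passed 2-fold. All 8 genes of pyruvate dehydrogenase and its regulators were below 0, and 2 passed 2-fold, but 6 of 8 were below 0 with quantile normalization, 5 with scaling to the 75th percentile and 7 with cyclic loess. Without these scalings, 6580 of all 12597 genes were below 0.

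In tumour cells, 1 of 58 such genes was higher in p65-/- cells and 5 were lower, where 2.74% of all genes were higher and 5.62% lower. Bhlhe40, for a transcriptional repressor, was 4.20-fold higher, at 185 in p65+/+ and 775 in p65-/- tumour cells. Stc1 was at least 13.7-fold lower (1272 and 61.6, the latter under the floor) and Pcx, for pyruvate carboxylase, at least 5.11-fold lower (474 and 89.8, likewise). Epas1 was 4.25-fold lower, Car12, for a carbonic anhydrase, 2.96-fold lower and Bpgm, which makes 2,3-bisphosphoglycerate in red cells, 2.47-fold lower.

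In the tumour change of p65+/+ cells, 1 of 57 such genes was higher, Stc1 by 2.43-fold, and 1 lower, Bhlhe40 by 2.60-fold, where 0.991% and 0.777% of all genes were higher and lower. In the change of p65-/- cells 10 of 59 were higher and 3 lower, where 13.9% and 1.5% of all genes were. The counts became 5 and 4 with quantile normalization, where 1207 and 431 of all 12444 genes were higher and lower. They became 6 and 4 with scaling to the 75th percentile, where 1110 and 360 of all genes were. The higher listed genes include Lox (6.91-fold), Ugp2 (4.68-fold), Rpe, for an epimerase of the pentose phosphate pathway (3.38-fold), Wsb1 (3.27-fold) and Tfrc, for the transferrin receptor (2.60-fold). Car12 was 3.37-fold lower. All 9 genes of pyruvate dehydrogenase and its regulators compared there were above 0, but 8 with quantile normalization or cyclic loess and 6 with scaling to the 75th percentile. The median of all genes moved from 0.03 to -0.18, -0.02 and -0.25 in these settings. Without them, 6655 of all 12444 genes were above 0. The p65-/- pre-injection array enters these values as well as those before injection.

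With p65-/- tumour cells used instead of p65-/- pre-injection cells, the genotype comparison kept Eno3 alone past 2-fold, at 1.28. Hif1a was then at 0.04, Egln3 at 0.03, Slc16a1 at -0.58 and Pfkl at 0.61. The glycolytic enzymes kept 10 of 11 differences above 0, with a median of 0.29 in place of 0.68. The same pair of arrays results when p65+/+ pre-injection cells replace the p65-/- pre-injection array in the tumour change, where Bnip3 was at 0.36. There the direction of the glycolytic enzymes reversed, from 11 of 12 below 0 with a median of -0.31 to 10 of 11 above 0 with a median of 0.29. On this pair the 11 HIF and hypoxia genes had a median of 0.24, with 9 above 0. It was -0.23 before injection and 0.50 in the p65-/- tumour change. Pyruvate dehydrogenase and its regulators had a median of -0.14, with 6 of 9 below 0, in place of -0.84 and 0.48. Of 58 other pathway genes, 1 was higher and 6 lower, not 2 and 14 (before injection) or 10 and 3 (tumour change). Of all 11980 genes, 226 were higher and 469 lower, with a median of -0.01. This pair of arrays differs in both genotype and tumour state, so its values are the sum of differences given above and no separate measurement. The difference of the tumour changes, with the same replacement, equals the genotype difference in tumour cells. Egln3 was then at -0.99, Eno3 at 0.58, Hk1 at -0.35, Hif1a at -0.05, Bnip3 at 0.68 and P4ha2 at 1.11. The glycolytic enzymes, 12 of 12 below 0 without the replacement (median -0.41), were then above 0 in 8 of 11 (median 0.09). Under 4 other scalings of the arrays 12 of 12 glycolytic enzymes were above 0 before injection, with medians of 0.77 to 1.06 in place of 0.68. These scalings also moved the median of all genes up from -0.02. It became 0.24 (quantile normalization), 0.35 (75th percentile), 0.07 (centred on the median) and 0.02 (cyclic loess). They are therefore a weak check on the sign of these differences. The median of the HIF and hypoxia genes before injection changed sign, to 0.19 with quantile normalization and 0.14 with scaling to the 75th percentile, settings that move the median of all genes from -0.02 to 0.24 and 0.35.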

How the data were processed

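RNA of 4 cell samples, 1 per group, was labelled from 6 ug each per the labels. The authors' deposited values are a linear signal intensity per probe set for 45037 probe sets. Their summarisation and scaling are not given in the sources used here. A table deposited by the authors as log2 ratios holds a score, a quotient of 2 log2 levels with a sign for direction, and served as an alternative. For signals of at least 300 it matched that quotient within 0.02 for 22 of 24, 24 of 25, 25 of 25 and 22 of 25 of the genes described. The 4 comparisons are in the order before injection, tumour cells, p65+/+ tumour change and p65-/- tumour change. Over all probe sets with such signals the shares were 75.6%, 90.5%, 94.6% and 79.8%. Where a difference is small the quotient lies close to 1, so a match within 0.02 says little. For weaker signals the table is less certain. Scanner intensities, not normalised per the file headers, were used for array quality.

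Probe sets were named with the platform annotation of 2016 (34945 have 1 gene, 932 several). Among single-gene probe sets, the strongest on average over the arrays stood for a gene, and suffixed ones only where no other existed. Signals were raised to the array's median, converted to log2 and subtracted, with no further normalization. Comparisons needed a signal at or above the floor on at least 1 array. Differences were counted at 2-fold and tested on simulated data with 200 changed genes. Precision is limited by 1 array per group. The 36 genes and the lists were chosen with earlier results of these data known. Every gene is accounted for; genes outside the 36 were named where they passed 2-fold, at most 6 per comparison in order of size. Alternatives were other scalings, floors, probe set rules, a pseudocount of 16, 1.5-fold, the deposited table and a substituted array. Promoters came from RefSeq tables. Tools were Python 3.11.15, numpy 2.4.6, pandas 2.3.3, R 4.3.3 and limma 3.58.1 (scaling functions).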

Additional observations from a re-analysis of the deposited data

Results flagged for a closer look

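Egln3 was singled out because its tumour change ran in opposite directions in the 2 genotypes. The p65-/- change minus the p65+/+ change was -2.45 on the log2 scale, from signals of 302 before injection and 611 after it in p65+/+ cells, and of 834 and 308 in p65-/- cells. The other Egln3 probe set gave -2.50. With the p65+/+ pre-injection array in place of the p65-/- one, the difference equals that between genotypes in tumour cells, -0.99. With 1 array per group, the difference was not tested. Opposite directions were not particular to Egln3. Among others, the p65+/+ and p65-/- changes were 0.70 and -1.45 for Eno3, 0.43 and -0.69 for Hk1 and -0.32 and 1.10 for Bnip3. Of the genes described, Egln3 alone passed 2-fold in both genotypes.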

How the results depend on the processing

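No paired analysis was possible because each group has 1 array, and for the same reason no replicate could be left out. Before injection, the 3 higher genes became 6 with quantile normalization, 7 with scaling to the 75th percentile and 6 with cyclic loess. They became 5 by the authors' deposited table (with Slc16a3 and Pfkp) and 8 at 1.5-fold. Over all genes, the 266 higher became 891, 803, 401, 1195 (of 10196 compared) and 943 in the same order of settings. Centring on the median gave 4 higher genes (with Pfkp), against 325 of all genes. The 2 lower genes became 1 with the mean of all probe sets, where Slc16a1 was at -0.86, and 4 at 1.5-fold. Over all genes, the 2283 lower became 1615 (of 11341 compared) and 3344. In tumour cells the 2 higher genes became 4 at 1.5-fold, where the 328 higher over all genes became 888. By the authors' deposited table they became 3 (with Slc16a3), against 955 of 10518 genes. The count of 0 lower genes became 1 with the mean of all probe sets (Egln3), 2 by the authors' deposited table (Egln3, Ndrg1) and 3 at 1.5-fold. Over all genes, the 674 lower became 484 (of 10787 compared), 1161 (of 10518 compared) and 1541. In the p65+/+ tumour change the 1 higher gene, Egln3, became 0 with quantile normalization and with a pseudocount of 16. The count became 2 by the authors' deposited table (with Slc16a3) and 3 at 1.5-fold. Over all genes, the 116 higher became 104, 102, 605 (of 10721 compared) and 449 in the same order. The log2 change of Egln3 ranged from 0.98 to 1.07. In the p65-/- tumour change the 2 higher genes became 1 with quantile normalization, scaling to the 75th percentile or cyclic loess. Bnip3 was under 2-fold there (lowest 0.76). At 1.5-fold the 2 higher became 7 and the 2 lower became 4. Over all genes, the 1734 higher became 1207, 1110 and 1375 in these scalings. At 1.5-fold they became 2928, and the 187 lower became 596. The mean of all probe sets gave 3 higher genes (with Ero1l), against 1090 of 11134 genes. The authors' deposited table also gave 3 (with Slc16a3), against 2052 of 10410 genes. For the difference of the tumour changes, 1.5-fold gave 8 upward and 6 downward, against 3050 and 956 of all 12829 genes. The 3 downward became 4 (with Pfkp) with quantile normalization, scaling to the 75th percentile and cyclic loess. Over all genes, the 338 downward became 693, 682 and 493 (of 12815 compared). With the p65-/- pre-injection array replaced, the counts were 1 higher and 0 lower in both comparisons, against 226 and 469 of all 11980 genes. The sign then reversed for Hif1a before injection (0.04) and for Eno3 (1.28) and Egln3 (0.03) in the p65-/- tumour change. Hif1a, Eno3, Egln3 and Pfkl before injection, Egln1 and P4ha2 in tumour cells, and Hif1a, Eno3 and Egln3 in the p65-/- tumour change kept 2-fold under the 10 alternatives that use the same arrays. Some of these alternatives could not change a gene with 1 probe set and signals above the floor. Other floors and probe set rules left P4ha2 in tumour cells at 1.11 and Eno3 in the p65-/- tumour change at -1.45, so they are no check there. Over all genes, the lower share of calls before injection was 89.6%, and 63.6%, 65.2% and 65.2% with quantile normalization, scaling to the 75th percentile and the authors' deposited table; for the p65-/- tumour change it was 9.73%, 26.3%, 24.5% and 33.3%. The cause of these shifts was not tested. Signals near the floor, as for Eno2, Pfkfb3 and Pfkfb4, limit what their folds can show.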
